A study of Mus musculus with 10 samples.

Results

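The 10 genes described here encode receptors, kinases, the transcription factor and the feedback inhibitor through which cells answer interleukin 6 and its relatives. They were taken by symbol from the deposited count table: Il6ra, Il6st, Lifr, Osmr, Il11ra1, Jak1, Jak2, Tyk2, Stat3 and Socs3. All 10 were found among the 24537 genes of the table, and all 10 passed the filter on low counts that left 13909 genes for testing. RNA was sequenced from whole livers of 10 male mice whose hepatocytes had been edited in vivo by an adeno-associated virus of serotype 8 carrying the Staphylococcus aureus Cas9 under the hepatocyte promoter TBG and a U6-driven guide RNA. The 3 young mice received the Rosa26 guide at 7 months of age and were 9 months old, and the 3 old control mice received the same guide at 23 months and were 25 months old. The 4 old knockout mice received a Cd44 guide at 23 months and were 25 months old, replicates 1 and 2 with guide 4 and replicates 3 and 4 with guide 2. Every mouse, the controls included, thus received the virus with Cas9 and a guide, and the TBG promoter directs Cas9 to hepatocytes, while RNA came from all cells of the liver. The title of the series links hepatocyte Cd44 to interleukin 6 and STAT3 in the aged liver, which is the question the comparisons below address.

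Interleukin 6 binds its own receptor chain, IL6RA, and the complex then recruits the shared signalling chain gp130, encoded by Il6st. Leukaemia inhibitory factor, oncostatin M and interleukin 11 use gp130 as well, with LIFR, OSMR or the interleukin 11 receptor as the partner. The Janus kinases JAK1, JAK2 and TYK2 sit on the cytoplasmic tails of these receptors and phosphorylate STAT3, which enters the nucleus and in hepatocytes switches on acute phase genes. SOCS3 is itself induced by STAT3 and blocks gp130 and the kinases.

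The base pattern that STAT dimers recognise is TTCNNNGAA, which reads the same on both strands. Among RefSeq promoter windows on GRCm38.p6, from 250 bases before to 50 bases after each annotated start, 8.3% of 32851 held at least 1 match. All 10 genes had such windows, 12 in all, and only the Socs3 window held a match. The 250 bases before the Socs3 start, chr11:117969367-117969616 on the minus strand, are shown because Socs3 is both a target of STAT3 and a member, with the match in capitals. They precede the RefSeq start. GENCODE M21 also has Socs3 transcripts that begin further upstream, so the stretch lies inside the GENCODE bounds of the gene given below.

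Socs3: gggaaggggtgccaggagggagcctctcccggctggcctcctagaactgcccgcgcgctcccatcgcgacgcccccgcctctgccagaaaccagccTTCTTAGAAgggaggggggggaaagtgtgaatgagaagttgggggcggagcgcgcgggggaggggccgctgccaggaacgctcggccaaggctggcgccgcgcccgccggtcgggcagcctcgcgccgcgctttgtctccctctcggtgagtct

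In a list of 36 liver genes known as STAT3 targets, 29 had windows and 7 of those genes held a match. Counted by gene in the same way, 2582 of all 27025 genes with windows held a match, and 918 of 10682 genes tested. The matches of Fga and Fgb, which encode fibrinogen chains, and of Steap4, a metalloreductase, are shown because these 3 genes were lower in old knockout than in young livers (values below). They lie at chr3:83025909-83025937 (plus strand), chr3:83050007-83050035 (minus strand) and chr5:7960346-7960374 (plus strand). The other 4 genes with a match, Apcs, Hamp, Itih4 and Bcl6, did not pass in that comparison, at -0.37, -0.27, -0.90 and -0.60 on the log2 scale. A match is a string of letters in a window and was not tested for binding.

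Fga: aggcccccatTTCCTGGAAtgtagattcc

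Fgb: gactcaatgaTTCGAGGAAccccctgtgt

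Steap4: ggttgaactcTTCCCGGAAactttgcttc

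Libraries held between 15821198 and 21710228 counts. The targeted gene Cd44 had 14.2, 29.99 and 25.9 CPM (counts relative to library size) in old controls and 18.9, 29.0, 17.6 and 13.1 CPM in knockout replicates 1 to 4, which is -0.25 on the log2 scale (SE 0.30), so whole-liver counts did not separate these groups and the direction of the knockout comparison rests on the labels. Among the 3 old controls, replicate 3 had the highest CPM for 8 of the 10 genes, while it was highest for 37.0% of all genes tested. Among all old livers, knockout livers included, this old control was highest for 6 of the 10, and for 23.8% of all genes tested. Its library name also lies outside the run of the others. Results of the 10 genes that rest on this liver, and the counts of the gene lists that move with it, are given with and without it. The hepatocyte defining markers, with Alb, Ttr and Apoa1 among 10 genes, summed to 97830 CPM or more in every liver, and no marker of the 8 cell type lists in the table was at 0 in all livers.

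The 10 genes spanned a wide range of levels. Per kilobase of annotated exon, Stat3 stood highest with a mean of 18.6 RPKM over the 10 livers, followed by Lifr at 13.1, Jak1 at 12.6, Il6st at 8.37, Il11ra1 at 7.58, Socs3 at 7.33, Tyk2 at 4.72, Jak2 at 2.88, Il6ra at 2.17 and Osmr at 0.575. Within a liver, Tyk2 was above Jak2 in 10 of 10 livers and Il6ra above Osmr in 10 of 10. Stat3 was above Lifr in 9 of 10 livers, and Jak1 above Il6st in 9 of 10. Other neighbours in this order were not separated: Lifr was above Jak1, Il6st above Il11ra1 and Il11ra1 above Socs3 in 5 of 10 livers each, Socs3 above Tyk2 in 6 and Jak2 above Il6ra in 7. On this scale the kinase Jak1 was the most abundant of the 3 kinases, and the ligand-binding chain Il6ra lay well below the signalling chain Il6st. The length-scaled levels use exon lengths of GENCODE M21 and assume reads spread over all exons.

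**Figure D1:**
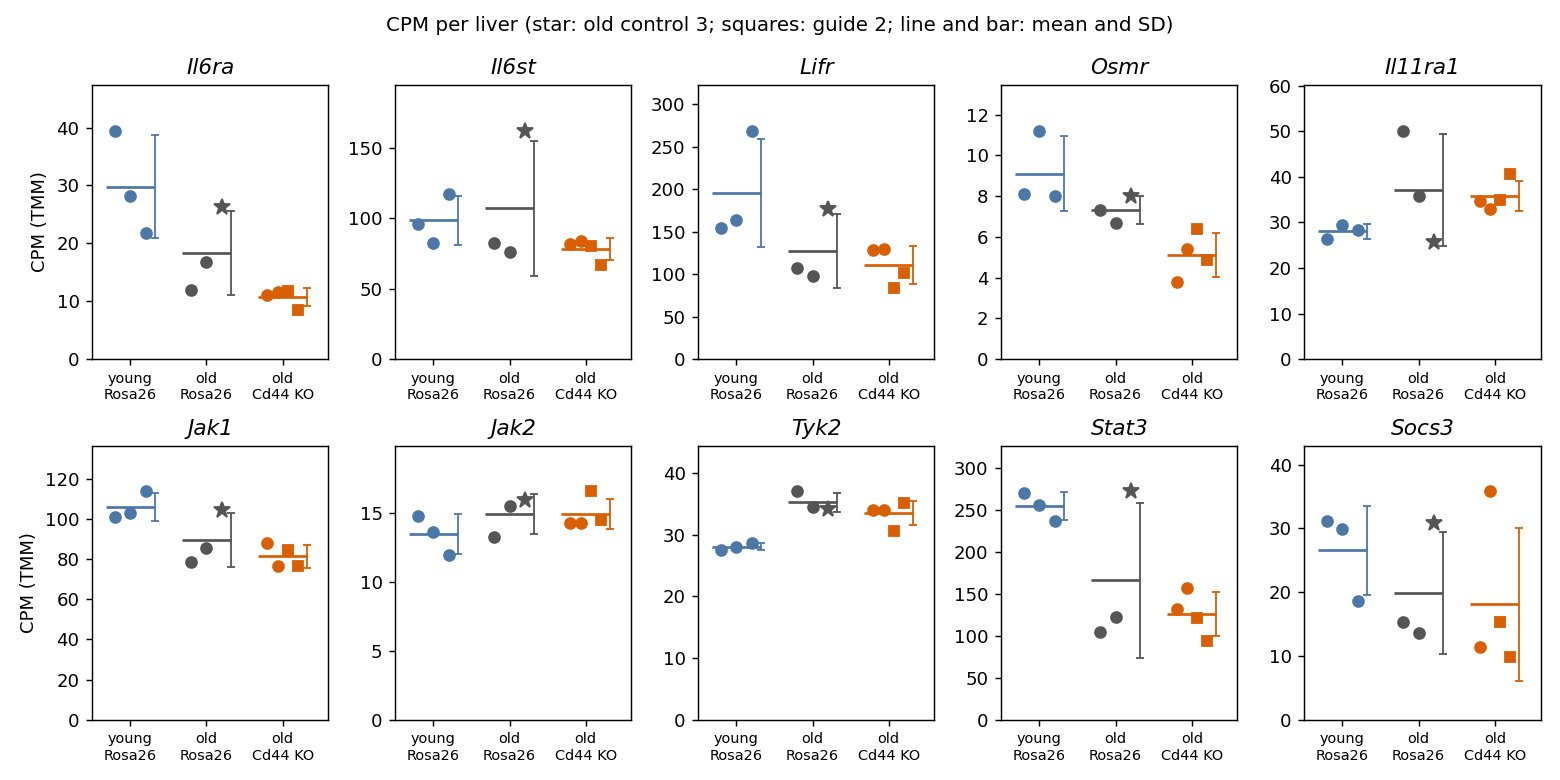
CPM with TMM factors (vertical axes) of each of the 10 genes in each liver, by group on the horizontal axes; lines and bars are means and SD, stars mark old control replicate 3 and squares the guide 2 livers. Il6ra and Osmr of the 4 knockout livers lie below every old control, for Il6ra narrowly (highest knockout liver 11.82, lowest old control 11.94 CPM). For Stat3, Il6st and Il6ra the old control mean is raised by replicate 3.

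The first comparison set old against young control livers. In edgeR's quasi-likelihood test 1 of the 10 genes passed an adjusted p of 0.05, against 22.8% of all genes tested. Tyk2 was also the only one whose groups did not overlap, which held for 37.7% of all genes. The median log2 fold change was -0.28 over the 10 genes and 0.04 over all genes.

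Tyk2, a Janus kinase also used by interferon and interleukin 12 receptors (chromosome 9, 21104068 to 21131243, minus strand, GRCm38), had 27.5, 28.0 and 28.6 CPM in young livers and 37.0, 34.6 and 34.1 CPM in old controls. All old controls lay above all young livers, with little spread in either group. The log2 fold change was 0.33 (SE 0.10, adjusted p 0.0388). The call is a narrow one: it held in 1 of 6 fits that each left out 1 liver, where the adjusted p lay between 0.0259 and 0.117 and the log2 fold change between 0.29 and 0.35. Of the 75-base stretches of its transcripts, 6.7% are shared with the antisense gene 1700084C06Rik, so without strand some of its reads cannot be assigned.

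The receptor chains gave mixed values. Il6ra (chromosome 3, 89864059 to 89913196, minus strand), which binds interleukin 6 and sets which cells can answer it directly, had 39.5, 28.1 and 21.9 CPM in young livers and 11.9, 16.7 and 26.2 CPM in old controls. Replicates 1 and 2 of the old controls lay below every young liver, and replicate 3 lay inside the young range. The log2 fold change was -0.70 (SE 0.28, adjusted p 0.0896). Without old control replicate 3 it was -1.06 (SE 0.25, adjusted p 0.0104).

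Lifr (chromosome 15, 7090614 to 7197489, plus strand), the partner of gp130 for leukaemia inhibitory factor, had 155, 163 and 269 CPM in young livers and 107, 97.1 and 177 CPM in old controls. The pattern was that of Il6ra, with replicate 3 alone reaching into the young range. Its log2 fold change was -0.62 (SE 0.28, adjusted p 0.124), and -0.94 (SE 0.26, adjusted p 0.0186) without replicate 3.

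Il6st (chromosome 13, 112464070 to 112510086, plus strand), the shared chain gp130, had 96.0, 82.4 and 117 CPM in young livers and 82.7, 76.3 and 162 CPM in old controls. Replicate 3 held the highest Il6st level of all 10 livers, and the groups overlapped. The log2 fold change of 0.12 (SE 0.26, adjusted p 0.761) turned to -0.31 (SE 0.16, adjusted p 0.147) without that liver, so no direction can be given.

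Osmr (chromosome 15, 6813577 to 6874969, minus strand), the oncostatin M receptor chain, had 8.08, 11.2 and 7.98 CPM in young livers and 7.32, 6.66 and 8.01 CPM in old controls, which is -0.31 on the log2 scale (SE 0.22, adjusted p 0.313). Il11ra1 (chromosome 4, 41699989 to 41769474, plus strand), the interleukin 11 receptor chain, had the largest positive value among the receptors: 26.4, 29.5 and 28.3 CPM in young livers against 50.2, 35.8 and 25.7 CPM in old controls. Here replicate 3 was the lowest of all 10 livers, and the log2 fold change was 0.41 (SE 0.20, adjusted p 0.157), or 0.61 (SE 0.15, adjusted p 0.0119) without it. Il11ra1 shares 35.9% of its 75-base stretches with Il11ra2 and Gm13305, so its reads are uncertain. Il11ra2 took between 8.21% and 12.5% of the summed counts of Il11ra1 and Il11ra2, and the sum kept the same order of old controls, with 54.8, 39.5 and 28.1 CPM.

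Among the other kinases, Jak1 (chromosome 4, 101152367 to 101265282, minus strand), the kinase gp130 signalling depends on most, had 101, 103 and 114 CPM in young livers and 78.6, 85.3 and 105 CPM in old controls. Old against young, Jak1 stood at -0.24 on the log2 scale (SE 0.13, adjusted p 0.205), and -0.37 (SE 0.12, adjusted p 0.0334) without replicate 3. Jak2 (chromosome 19, 29251828 to 29313080, plus strand), best known for growth hormone and erythropoietin signalling, had 14.8, 13.7 and 11.97 CPM in young livers against 13.3, 15.5 and 16.0 CPM in old controls, which is 0.15 on the log2 scale (SE 0.14, adjusted p 0.449). The young and old control values of Jak2 overlapped.

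Stat3 (chromosome 11, 100885098 to 100939540, minus strand) had 271, 257 and 237 CPM in young livers and 104, 122 and 272 CPM in old controls. Replicates 1 and 2 of the old controls lay far below the young livers, and replicate 3 was the highest liver of all 10. For Stat3 this gave -0.62 on the log2 scale (SE 0.31, adjusted p 0.172) with replicate 3 and -1.17 (SE 0.20, adjusted p 0.00314) without it. Socs3 (chromosome 11, 117966079 to 117970047, minus strand) had 31.2, 29.9 and 18.6 CPM in young livers and 15.3, 13.5 and 30.9 CPM in old controls. Again replicate 3 was apart, with a Socs3 level inside the young range. For Socs3 this gave -0.42 on the log2 scale (SE 0.46, adjusted p 0.538), and -0.89 (SE 0.48, adjusted p 0.165) without replicate 3.

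Without old control replicate 3, 6 of the 10 genes passed the threshold in the age comparison, Il6ra, Lifr, Jak1 and Stat3 lower and Il11ra1 and Tyk2 higher in old livers, against 37.7% of 14116 genes tested in that fit. Which age result holds for most of these genes thus depends on 1 liver. The cause of its difference was not tested.

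**Figure D2:**
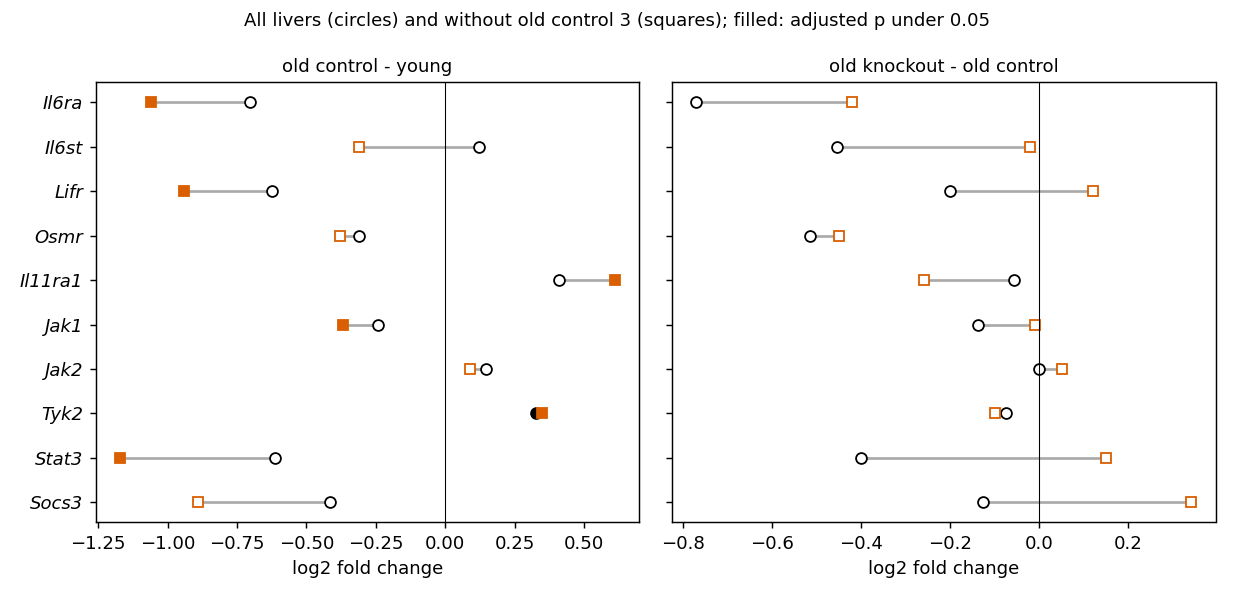
Log2 fold changes (horizontal axes) of the 10 genes between old control and young livers (left) and between old knockout and old control livers (right), with all livers (circles) and without old control replicate 3 (squares); filled symbols have an adjusted p under 0.05. Without that liver Stat3 moves from -0.62 to -1.17 with age and from -0.40 to 0.15 with knockout.

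The second comparison set old knockout livers against old controls. By edgeR 0 of the 10 genes passed the adjusted threshold of 0.05, as did 0% of all genes (916 genes had an unadjusted p under 0.05, and DESeq2 called 8 genes, 0 of them among the 10). All 10 fitted log2 fold changes were below 0, with a median of -0.17, where 54.4% of all genes were below 0. Without old control replicate 3 only 6 of the 10 were below 0, so this count also rests on that liver. Jak2, at a log2 fold change of 0.00, carries no direction, and its sign turned under other settings. The 10 values share the same old controls, so they are not separate observations.

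Il6ra and Osmr were the genes with an unadjusted p under 0.05, which 4.02% of all genes had in the lower direction. They were also the ones whose knockout livers all lay below all old controls, as did 3.26% of all genes. Il6ra had 10.98, 11.6, 11.8 and 8.46 CPM in knockout replicates 1 to 4, a tight group under the lowest old control at 11.9 CPM. The log2 fold change was -0.77 (SE 0.26, 95% interval -1.35 to -0.19), unadjusted p 0.0136, adjusted p 0.744. Without old control replicate 3 it was -0.42 (SE 0.23, adjusted p 0.499).

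Osmr had 3.78, 5.41, 6.41 and 4.84 CPM in knockout replicates 1 to 4, against 6.66 CPM in the lowest old control. On the log2 scale Osmr stood at -0.52 (SE 0.20, 95% interval -0.96 to -0.07), unadjusted p 0.027, adjusted p 0.744. This value rested less on replicate 3 than that of Il6ra, being -0.45 (SE 0.23, adjusted p 0.470) without it. In whole liver, fewer cells of a type and less RNA per cell cannot be told apart for any of these genes.

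Il6st had 81.6, 84.0, 80.2 and 66.4 CPM in knockout replicates 1 to 4, against 82.7, 76.3 and 162 CPM in old controls. Only old control replicate 3 lay apart from the knockout livers. Its log2 fold change of -0.45 (SE 0.24, adjusted p 0.765) was -0.02 without old control replicate 3. Stat3 had 132, 157, 121 and 93.6 CPM in knockout livers, against 104, 122 and 272 CPM in old controls, and the groups overlapped. Its log2 fold change was -0.40 (SE 0.29, adjusted p 0.811), and it turned to 0.15 without that liver. Lifr went from -0.20 to 0.12 and Socs3 from -0.13 to 0.34 in the same way. The sign of Stat3, Lifr and Socs3 in this comparison thus turned with old control replicate 3. For Lifr and Socs3 it also differed between guides. Against old controls, Lifr was at 0.02 with guide 4 and -0.46 with guide 2. Socs3 was at 0.26 with guide 4 and -0.65 with guide 2.

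Socs3 had 11.4, 35.8, 15.4 and 9.86 CPM in knockout replicates 1 to 4. Replicate 2, with guide 4, held the highest Socs3 level of all 10 livers and replicate 4, with guide 2, the lowest. The 95% interval of the Socs3 log2 fold change ran from -1.08 to 0.83, wide enough to hold a change of either sign. Jak1, Tyk2 and Il11ra1 had log2 fold changes of -0.14, -0.07 and -0.06, with 95% intervals of -0.41 to 0.14, -0.28 to 0.13 and -0.46 to 0.35.

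The third comparison set old knockout against young livers. Here 3 of the 10 genes fell, Il6ra, Osmr and Stat3, and none rose. In edgeR's quasi-likelihood test 11.6% of all genes passed an adjusted p of 0.05, and 4.97% passed in the lower direction. Young livers are shared with the first comparison, and knockout livers with the second.

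Il6ra fell by 1.47 on the log2 scale (SE 0.26, 95% interval -2.05 to -0.90, adjusted p 0.014), from 29.8 ± 8.93 CPM in young (SD, n = 3) to 10.7 ± 1.55 CPM in knockout livers (SD, n = 4). That is 2.78-fold less, and the highest knockout liver at 11.8 CPM lay far under the lowest young liver at 21.9 CPM. The call held in 6 of 7 fits that each left out 1 liver; without young replicate 2 the adjusted p was 0.0627.

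Osmr fell by 0.83 on the log2 scale (SE 0.20, 95% interval -1.27 to -0.38, adjusted p 0.032). Its young mean was 9.09 ± 1.84 CPM (SD, n = 3) and its knockout mean 5.11 ± 1.10 CPM (SD, n = 4). It is the lowest of the 10 genes in level, and its counts lay between 65 and 170 per liver. The call held in 2 of 7 leave-one-out fits, those without knockout replicates 1 and 3. Without young replicate 1, 2 or 3 the adjusted p was 0.0608, 0.141 and 0.0712.

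Stat3 fell by 1.02 on the log2 scale (SE 0.29, 95% interval -1.65 to -0.38, adjusted p 0.0462). Its young mean was 255 ± 16.9 CPM (SD, n = 3) and its knockout mean 126 ± 26.2 CPM (SD, n = 4), with no overlap. The call was lost in all 7 leave-one-out fits, where the log2 fold change stayed between -1.14 and -0.90 and the adjusted p lay between 0.0647 and 0.145. With only the guide 2 or only the guide 4 livers, Il6ra differed by -1.55 or -1.40 and Stat3 by -1.25 or -0.82, with no call in these smaller fits.

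Lifr (log2 fold change -0.82, SE 0.26, adjusted p 0.0588) and Jak1 (-0.38, SE 0.12, adjusted p 0.0665) lay below the young livers without overlap but missed the threshold. Tyk2 (0.25, SE 0.09, adjusted p 0.0935) and Il11ra1 (0.35, SE 0.19, adjusted p 0.21) lay above them without overlap. In all, 7 of 10 genes had groups that did not overlap, against 40.0% of all genes. Il6st, Jak2 and Socs3 overlapped, with log2 fold changes of -0.33, 0.15 and -0.54.

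**Figure D3:**
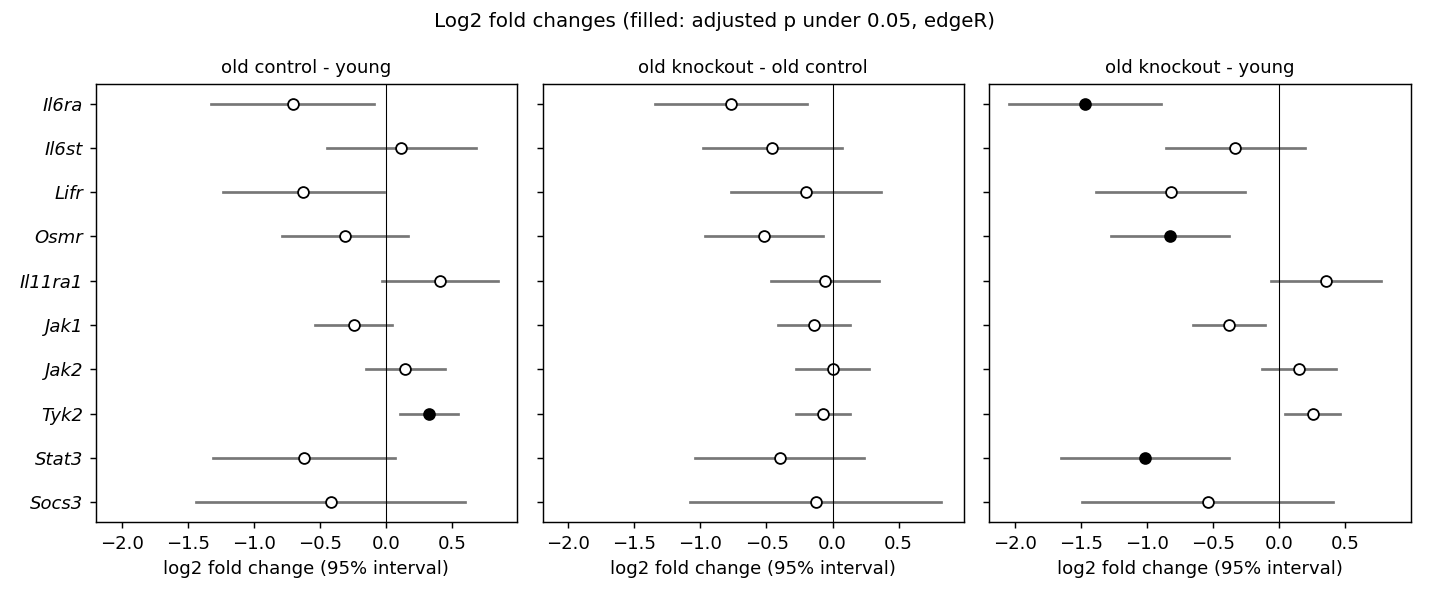
Log2 fold changes (horizontal axes) with 95% intervals for the 10 genes in the 3 comparisons of groups; filled points have an adjusted p under 0.05. Filled points are Tyk2 at 0.33 between old control and young livers, and Il6ra at -1.47, Osmr at -0.83 and Stat3 at -1.02 between old knockout and young livers.

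Directions with age also depend on how libraries are scaled. The TMM factors were 0.82 to 0.90 in young livers and 0.97 to 1.12 in old livers. Scaling by total counts alone moved the median log2 fold change of all genes from 0.04 to 0.34 in old control against young livers and from 0.03 to 0.35 in old knockout against young livers. Under it Il6ra still fell in old knockout against young livers, Tyk2, Jak2 and Il11ra1 were called higher in both comparisons with young livers, and Osmr and Stat3 lost their calls, at -0.50 (adjusted p 0.0819) and -0.69 (adjusted p 0.0686). The share of called genes that were higher moved from 62.0% to 91.6% in old control against young livers and from 57.2% to 92.9% in old knockout against young livers, and was 77.6% and 75.6% with upper quartile factors. Jak1 with age turned from -0.24 to 0.05. With upper quartile factors Stat3 lost its call in old knockout against young livers and Tyk2 gained one, and voom left Il6ra and Osmr.

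Ratios of 2 genes within a liver do not depend on that scaling. The ratio of Il6ra to Il6st counts was 0.411, 0.341 and 0.187 in young livers, 0.144, 0.219 and 0.162 in old controls and 0.135, 0.138, 0.147 and 0.127 in knockout livers. The knockout livers lay within a narrow band below all young livers, and old control replicate 3, high in both genes, had a ratio between those of the other old controls. The log2 ratio differed by -1.12 between old knockout and young livers (exact two-sided permutation p 0.0286, the smallest that 4 against 3 livers allow, and 0.171 after adjustment over 6 ratio tests). Between knockout and old control livers it differed by -0.34 (exact permutation p 0.0571, adjusted 0.171), with old control replicate 1 inside the knockout range. Between old control and young livers it differed by -0.78 (exact permutation p 0.2, adjusted 0.4, where 3 against 3 livers cannot go below 0.1).

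The ratio of Socs3 to Stat3 counts was 0.115, 0.116 and 0.0783 in young livers, 0.146, 0.111 and 0.113 in old controls and 0.0866, 0.228, 0.127 and 0.105 in knockout livers. Knockout replicate 2 had the highest ratio, and all groups overlapped. The adjusted exact permutation p was 0.72, 0.886 and 0.686 for the comparisons in the order given above. No difference in this ratio exceeded the spread between livers.

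**Figure D4:**
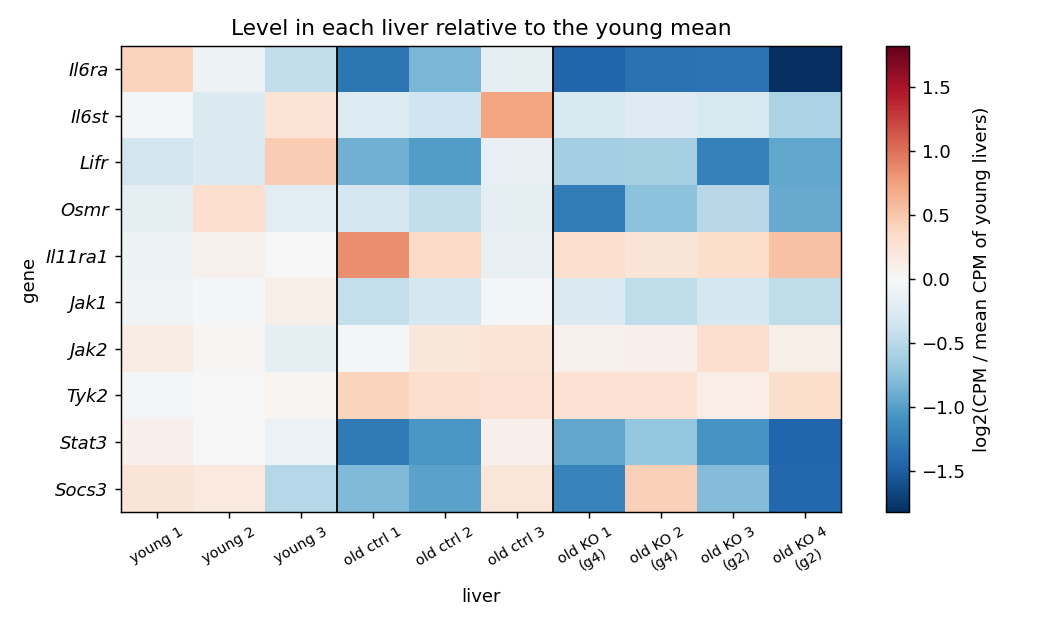
Log2 of the CPM in each liver over the mean CPM of the 3 young livers (colour), for the 10 genes (rows) and 10 livers (columns, knockout livers with their guide). Stat3 is at -1.29 and -1.06 in old control replicates 1 and 2 and at 0.10 in replicate 3, and between -1.45 and -0.70 in the knockout livers.

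Between the guides, 0 of the 10 genes passed the same adjusted threshold, against 0.0212% of 14153 genes tested. An unadjusted p under 0.05 in that test was found for 0 of the 10 and for 4.4% of all genes. With 2 livers for each guide, the 95% interval of Socs3, with guide 4 minus guide 2 at 0.91 (SE 0.53), ran from -0.28 to 2.10. Stat3 differed by 0.43 (SE 0.38) and Lifr by 0.48 (SE 0.33). The guides did not overlap for Il6st, Lifr and Stat3, higher with guide 4, and for Il11ra1 and Jak2, higher with guide 2; non-overlap held for 38.6% of all genes. Against old controls, Il6ra gave -0.85 (SE 0.34) with guide 2 and -0.69 (SE 0.34) with guide 4. Osmr gave -0.38 (SE 0.25) with guide 2 and -0.67 (SE 0.25) with guide 4. In edgeR's quasi-likelihood test the adjusted p were 0.659 and 0.981 for Il6ra and 0.820 and 0.981 for Osmr. Both guides were set against the same old controls, replicate 3 among them, so their values are not separate observations.

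The ligands that the receptors described here are named for were near the limit of detection. Interleukin 6 itself, Il6, had 0 to 5 counts per liver, Osm 0 to 12, Lif 0 to 14 and Il11 0 to 3, where 3 counts correspond to 0.131 to 0.198 CPM. Of 11 ligand genes listed, 5 passed the filter and 2 rose in old control against young livers. Among all genes 22.8% were called in that comparison, and 14.1% were called higher. Ctf1, which encodes cardiotrophin 1, rose from 3.54 ± 0.721 to 5.61 ± 0.658 CPM (SD, n = 3 each; log2 fold change 0.66, adjusted p 0.0402). Ebi3, a subunit of interleukins 27 and 35, rose from 0.506 ± 0.179 to 3.73 ± 4.20 CPM (SD, n = 3 each; log2 fold change 2.87, adjusted p 0.031), with a spread larger than its mean.

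Of 15 tested negative regulators other than Socs3, 3 rose and 1 fell in old control against young livers, and 2 rose and 2 fell in old knockout against young livers. Among all genes 22.8% and 11.6% were called in these comparisons, and the count of 4 of 15 with age is near the first share. Ptprc (CD45, a phosphatase of blood cells) and Ptpn6 (SHP-1, mainly of blood cells) rose with age by 1.79 and 0.96 on the log2 scale, with adjusted p of 0.00936 and 0.0379. Pias3, an inhibitor of STAT3 binding to DNA, rose from 6.56 ± 0.604 to 13.2 ± 4.65 CPM (SD, n = 3 each; log2 fold change 1.005, adjusted p 0.0242). Ptpn2, a phosphatase that acts on STAT3 and JAK1, fell from 26.3 ± 3.56 to 18.5 ± 0.746 CPM (SD, n = 3 each; log2 fold change -0.50, adjusted p 0.0282). Ptpn1, the related phosphatase PTP1B, fell in old knockout against young livers, its means being 69.9 ± 17.8 CPM (SD, n = 3) in young and 34.9 ± 5.69 CPM (SD, n = 4) in knockout livers, or -1.002 on the log2 scale (adjusted p 0.0288). Of 9 tested adaptors and turnover factors, 1 rose with age, Gab1, a docking protein downstream of gp130 (log2 fold change 0.81, adjusted p 0.0175). None of 7 other Jak and Stat genes and none of 4 other receptors of the family passed in either comparison with young livers. Without old control replicate 3, where 37.7% of all genes were called with age, Stat4 rose among the 7 and Il27ra among the 4. In that fit 3 negative regulators rose and 3 fell, with Socs2 and Ptpn1 added, and 2 adaptors rose and 1 fell, with Ptpn11 and Adam17 added.

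Of 36 STAT3 target genes of liver, 6 fell and 0 rose in old control against young livers, with a median log2 fold change of -0.45 against 0.04 for all genes. In old knockout against young livers 13 fell and 0 rose, with a median of -0.68 against 0.03. Among all genes 8.66% were called lower in the first of these comparisons and 4.97% in the second. Saa1, an acute phase protein, averaged 1208 ± 236 CPM in young livers (SD, n = 3) against 109 ± 103 CPM with knockout (SD, n = 4), or -3.47 on the log2 scale (adjusted p 0.0235). Serpina3n, a secreted protease inhibitor, differed by -2.39 (adjusted p 0.00938), Bcl3, an NF-kB cofactor, by -1.17 (adjusted p 0.0258), and Fgg, a fibrinogen chain, by -1.34 (adjusted p 0.0342). Saa2, a close relative of Saa1, was also among them. Cebpb, a transcription factor of the acute phase, was called with age only (log2 fold change -0.77, adjusted p 0.0235). Fga, Fgb and Steap4, whose promoter matches are printed above, were among the 13, at -1.46, -1.15 and -2.27 on the log2 scale (adjusted p 0.0411, 0.0479 and 0.0358). Like Stat3, this list depended on old control replicate 3: without it, 18 of 36 targets fell with age. Calls over all genes, in either direction, went from 22.8% to 37.7%. Of those calls 62.0% were higher with all livers and 55.0% without that liver, so the share called lower is smaller than 37.7%. In the knockout comparison 0 of 36 passed, with a median of -0.25, and 0.13 without that liver. Between guides 0 of 36 passed, with a median of 0.64 for guide 4 minus guide 2 against 0.00 for all genes.

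Markers of other cells differed between the groups in the same livers. Summed CPM of 10 macrophage markers was 220 to 343 in young, 570 to 2064 in old control and 488 to 994 in knockout livers. Summed CPM of 10 sinusoidal endothelial markers was 151 to 228, 358 to 464 and 271 to 349 in the same order, and that of 10 stellate cell and fibroblast markers 200 to 353, 414 to 783 and 416 to 492. Of these lists 8, 8 and 7 of 10 genes rose in old control against young livers, where 14.1% of all genes were called higher and 8.66% lower. The 10 hepatocyte markers summed to 98238 to 120450 CPM in young, 97830 to 116970 in old control and 100240 to 107920 in knockout livers, with 3 of 10 genes lower in old control against young livers, and 6 of 10 without old control replicate 3. Without that liver 7 of 8 tested T and NK cell markers rose with age, against 4 of 7 with it. B and plasma cell markers went from 4 of 7 to 7 of 7 without it, and stellate markers from 7 to 8 of 10. Neutrophil markers went from 4 of 5 to 8 of 8. Ncr1 of the T and NK list and Elane, Camp and Ltf of the neutrophil list passed the low-count filter only without that liver. They could enter through livers where they were high, so their calls are not separate support. Old control replicate 2, with a neutrophil sum of 332 CPM, weighs more in that smaller fit. Calls with age over all genes, in either direction, also went from 22.8% to 37.7% without old control replicate 3. Of those calls 62.0% were higher with all livers and 55.0% without it. In old knockout against old control livers, the comparison in which Il6ra and Osmr had their lower values, 0 markers of any list passed. There all 10 macrophage, all 10 endothelial, all 10 stellate and all 5 tested neutrophil markers had log2 fold changes below 0, with medians of -1.01, -0.48, -0.39 and -2.49, where 54.4% of all genes were below 0. Below 0 were also 7 of 10 hepatocyte, 3 of 6 cholangiocyte, 3 of 7 T and NK and 1 of 7 B and plasma cell markers. Their medians were -0.05, 0.02, 0.08 and 0.45. Old control replicate 2 held the highest macrophage sum, 2064 CPM, and the highest neutrophil sum, 332 CPM, where the median old control had 18.0 CPM. Summed CPM of the T and NK cell markers in the table was 3.07 to 3.69, 4.15 to 56.9 and 11.6 to 28.1, of B and plasma cell markers 3.10 to 6.98, 8.11 to 38.8 and 24.0 to 31.4, of neutrophil markers 3.35 to 8.55, 14.1 to 332 and 8.33 to 24.6, and of cholangiocyte markers 44.4 to 91.5, 91.1 to 149 and 90.5 to 182. The part of these marker levels in the values of the 10 genes was not tested.

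The genes whose log2 CPM followed the members most closely over the 10 livers were sought among all genes tested, by Pearson r, as a description of these livers, which share age and scaling. For Stat3 they were Scara5 (0.98), Fgf1 (0.98) and Paics (0.98), and Il6ra ranked 167th with 0.91. For Il6ra they were Zhx2 (0.974), Rnf44 (0.964) and Sdc4 (0.963), with Stat3 in the 38th place. For Il6st they were Vps13b (0.966), Slco1b2 (0.965) and Zfp664 (0.959), and the best placed member was Stat3 with 0.73. For Socs3 they were 3110035E14Rik (0.947), Casd1 (0.929) and Shoc2 (0.888), and Stat3 stood 24th of all genes with 0.79. Il11ra1 ran opposite to Stat3, with -0.91.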

How the data were processed

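RNA of whole livers was isolated by poly(A) selection and sequenced as paired reads of 75 bases, per the labels' protocols. The authors deposited raw counts, whole numbers per gene symbol with 1 column per liver. The submitters' processing notes name FastQC 0.11.8, Trim Galore 0.4.4, STAR 2.5.3a, HOMER and the build mm10; the annotation and strand setting are not given in the sources used here, so reads of overlapping, antisense or near-identical genes could be misassigned.

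Counts were tested with edgeR 4.0.16 (R 4.3.3), quasi-likelihood, TMM factors, filterByExpr (minimum count 10, minimum total 15), 1 coefficient per group over all 10 livers, and 1 per guide for the guide comparison. P-values were adjusted by Benjamini-Hochberg over all genes tested, with a threshold of 0.05. CPM use TMM factors, except marker sums, which use total counts. RPKM are CPM divided by the union of exons in GENCODE M21 (GRCm38). Log2 CPM for pattern likeness had a prior count of 2. The SE of a log2 fold change is its size over the square root of F. Counting error alone sets the limit of 3 counts. Each ratio was tested by exact permutation, two-sided.

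Replicate numbers follow record order and pair no livers. The labels do not say more about separate animals than 1 sample each, so p-values measure the spread between these samples; each of 12 pairs within groups differed by more than counting noise (smallest chi-square over its degrees of freedom 21.7). Members, lists, tests and the naming rule (all members; pathway genes with an adjusted p under 0.05 against young livers, the 6 smallest p in a list at most) were chosen with earlier results of these data known. Target genes with a promoter match, genes called only without old control replicate 3 and the members' rank positions were named after their values were seen. Trac, Trbc2 and Ighm matched no symbol of the table. Alternatives were DESeq2 1.42.0, limma 3.58.1 (voom), other scalings, no filter, only the groups compared, single guides and leaving out each liver; total-count scaling was added after seeing the data. Fits were tested on simulated counts.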

Additional observations from a re-analysis of the deposited data

Results flagged for a closer look

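Among the 4 knockout livers, 1 liver lay far from the other 3 in 3 of 27 values examined, by a gap large against the whole range, where chance gives about 1.35. Jak2 in replicate 3 was highest (gap 0.897 of the range; 16.6 CPM against 14.3 to 14.5 CPM). Ebi3 in replicate 2 was highest (gap 0.852; 4.10 CPM against 1.28 to 1.70 CPM). Serpina3n in replicate 4 was lowest (gap 0.859; 232 CPM against 361 to 382 CPM).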

How the results depend on the processing

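Of 550 alternative values of the 10 genes, 476 kept direction and side of the threshold, 31 lost a call, 17 gained one and 26 changed sign. With age, 3172 genes were called, 1192 in a fit of only the 2 groups, and 396 (without young replicate 2) to 5327 (without old control replicate 3) when 1 liver was left out. Of the 10 genes, 0 were called with no filter, with voom or with only the 2 groups, 3 with total counts, and 0 to 6 leaving out livers. Jak1 turned to 0.05 with total counts, and Il6st ranged from -0.31 to 0.31 without single livers. In knockout against control, 0 genes were called, 8 by DESeq2, 2 with guide 2 alone, and 0 to 3 leaving out livers (3 without old control replicate 1). Jak2 was 0.00 with upper quartile factors, no filter or voom and 0.02 with total counts. With guide 2 alone Jak2 was 0.07 and Il11ra1 0.03, and with guide 4 alone Lifr was 0.02 and Socs3 0.25. Leaving out single livers gave Lifr -0.36 to 0.12, Il11ra1 -0.26 to 0.22, Jak2 -0.08 to 0.05, Stat3 -0.65 to 0.15 and Socs3 -0.70 to 0.34. In knockout against young, 1614 genes were called, 2803 by DESeq2, 969 by voom, 3585 with total counts, 4223 with only the 2 groups, 418 and 0 with guide 2 or 4 alone, and 56 (without young replicate 2) to 1652 leaving out livers. Of the 10 genes 3 were called, 5 by DESeq2, 7 with only the 2 groups, 0 with either guide alone and 0 to 2 leaving out livers. Between guides 3 genes were called, 10 with no filter, 74 by DESeq2 and 0 without any 1 liver; Il6ra ranged from -0.06 to 0.42, Jak1 from -0.07 to 0.13, Tyk2 from -0.05 to 0.15 and Socs3 from -0.14 to 1.5. The log2 ratio of Il6ra to Il6st in knockout against young ranged from -1.45 to -0.88, with no p under 0.05 possible once a liver is left out, and that of Socs3 to Stat3 in knockout against control from -0.22 to 0.24. Where an arm held 1 guide or lost a liver, fewer samples entered; otherwise the cause was not tested. No paired analysis was possible because animals carry no shared numbers in the labels.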
